A study of Mus musculus with 16 samples.

Results

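Genes that build and run the skeletal muscle fibre were followed in RNA of whole mouse skin. The set holds 35 genes of 32078 in the deposited table, picked by gene symbol from a fixed list. They code for the thick and thin filaments of the sarcomere, its Z-disc and scaffold, the calcium system of the fibre and enzymes that supply its energy. Of the 35, 34 passed the filter on low values (at least 10 normalised reads in at least 2 libraries) and 1, Tnnc2, did not.

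Whole skin was taken from 7-week-old mice under a topical treatment that the labels give as lasting 4 days. The 16 libraries form 8 groups of 2: SDS with Topsym at days 0, 1, 3 and 5, and SDS alone at days 0, 1, 3 and 5. SDS is sodium dodecyl sulfate, a detergent used to irritate skin, and Topsym is known as a name for fluocinonide, a glucocorticoid for the skin (background, not stated in the labels). All 8 groups carry SDS in their names, those of day 0 included. Strain and genotype are not given in the sources used here, and neither is what the day 0 animals had received or when treatment began. The series' design text speaks of sorted cells and fatty acids, which no label of these libraries names.

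The sarcomere is the repeating unit that shortens when a muscle contracts. Thick filaments are bundles of myosin heavy chains with their light chains, thin filaments are actin with tropomyosin and the troponin complex, and the Z-disc anchors the thin filaments. Calcium released from the sarcoplasmic reticulum binds troponin C and starts contraction. Slow fibres use the myosin heavy chain Myh7 with its own light chains and troponins, and fast fibres use Myh2, Myh1 or Myh4. Mouse skin lies on a thin sheet of striated muscle, the panniculus carnosus, which is a source of muscle RNA in whole skin.

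Libraries held 15199656 to 32066246 reads, and the 4 libraries of day 5 were the 4 smallest, at up to 18880060 reads. Values are normalised reads, scaled by the depositors for library size, and each change is a log2 difference, computed after adding 1 to every value and given ± its standard error (SE). A change was called where the adjusted p of limma, with Benjamini-Hochberg adjustment over 19189 genes, was under 0.05. Whether paired libraries of a group stem from different mice is not stated, so p-values reflect library-to-library spread alone, possibly technical. In whole skin, fewer fibres and less RNA per fibre cannot be told apart. All changes from day 0 combine SDS with time, animals and the tissue sampled, which cannot be told apart either.

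The muscle RNA of the skin was mostly that of fast fibres. Per kilobase of exon, the highest members at day 0 of SDS alone were Acta1 (skeletal alpha-actin) at a mean of 63061 normalised reads, Tnnt3 (fast troponin T) at 31234 and Myh4 (the fastest myosin heavy chain, type 2B) at 21181. Among the 4 adult heavy chains counted per kilobase, Myh4 made up 61.1 and 60.5% in the 2 libraries of that group, Myh1 (type 2X) 34.2 and 34.8%, Myh2 (type 2A) 4.62 and 4.68%, and slow Myh7 0.042 and 0.052%. The 6 slow genes together summed to 418 and 481 normalised reads there, against 432741 and 422913 for 13 fast genes and Tnnc2. Heart genes were scarce beside the fast genes, a list of 10 summing to 319 to 911 normalised reads over all libraries. At day 0 of SDS alone that list summed to 518 to 543, above the 6 slow genes. Within it Nppa, an atrial hormone gene, was at 0 in both libraries, and Myh6, a heart myosin heavy chain, at 11.5 and 5.61. Of 7 heart genes tested, 3 rose and 2 fell at day 3 of SDS alone (25.4 and 24.2% of all genes). The largest change was that of Nppb (4.98 ± 0.35, limma adjusted p = 4.75e-09). Tnnc2, the fast troponin C, read 0.881 and 1.60 at day 0 and at most 5.83 in any library. In GENCODE M21, 74% of its exon bases overlap Ube2c on the opposite strand, and how the counting handled strand is not stated, so its value is uncertain and no fold is given for it. Exons of Atp2a1 (21.9% of bases), Cacna1s (20%), Ckm (15.5%) and Myh7 (13.3%) also share bases with genes on the other strand.

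At day 1 of SDS alone, slow genes were far lower than at day 0 while most fast genes were modestly lower. Of 34 members tested, 30 fell and 1 rose, where 13.5% of all genes were called lower and 12.8% higher. The median change over the members was -0.49, against -0.03 over all genes. By role, all 10 thick filament genes fell, with 6 of 8 thin filament genes, 6 of 8 Z-disc and scaffold genes, all 5 calcium genes and all 3 energy genes. Neb, Myot and Tnni1 were not called. Of 12 fibroblast markers 9 fell as well (184885 to 187725 normalised reads at day 1, against 323278 to 331249 at day 0), while of 10 smooth muscle markers 5 fell and 2 rose (21427 to 22230, against 23400 to 23751), of 12 adipocyte markers 5 fell and 4 rose (69004 to 70618, against 70265 to 72864) and of 12 keratinocyte markers 4 fell and 6 rose (594556 to 627744, against 725591 to 735468). Their part in the result was not tested.

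Myh7, the slow heavy chain, read 0.971 and 2.52 normalised reads at day 1, against 130 and 151 at day 0, a log2 change of -5.74 ± 0.96 (SE, adjusted p = 0.000251). Myl2, the slow regulatory light chain, read 0 and 4.20 at day 1, against 47.6 and 52.9 at day 0 (-4.49 ± 0.82, adjusted p = 0.000579). Tnnc1, the troponin C of slow and heart muscle, read 1.94 and 1.68 at day 1, against 42.3 and 56.9 at day 0 (-4.16 ± 0.55, adjusted p = 2.45e-05). In each of these genes the day 1 libraries held only a few reads and stood apart from day 0. Tnnt1, slow troponin T, was 34.0 and 34.4 at day 1, against 154 and 156 at day 0 (-2.15 ± 0.35, adjusted p = 0.000185). Myl3, the slow essential light chain, was 5.83 and 2.52 at day 1, against 28.2 and 31.3 at day 0 (-2.65 ± 0.78, adjusted p = 0.0191). Tnni1, slow troponin I, was 2.91 and 8.39 at day 1, against 15.0 and 32.9 at day 0, and was not called (-1.94 ± 0.77, adjusted p = 0.0759). The groups did not overlap in the 6 slow genes, the uncalled Tnni1 included, but with 2 libraries a group that also held, in the lower direction, for 6709 of the 19189 genes tested. Tnni1 passed with a pseudocount of 4 and with both count tests (adjusted p of 0.0466 and of 0.0496 and 0.0381), while Myl3 lost its call without either day 0 library or the second day 1 library (adjusted p of 0.0779, 0.0953 and 0.149). Without the first day 1 library the change of Myl2 was -3.30, and without the second -5.68. With a pseudocount of 4 the changes of Myh7, Myl2 and Tnnc1 were -4.66, -3.24 and -3.19.

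The fast heavy chains did not move alike. Myh2 was 3255 and 2972 at day 1, against 11845 and 11265 at day 0 (-1.89 ± 0.06, adjusted p = 1.02e-12). Myh1 was 51718 and 51934 at day 1, against 78172 and 74564 at day 0 (-0.56 ± 0.04, adjusted p = 9.06e-08). Myh4 was 107201 and 105912 at day 1, against 132226 and 122622 at day 0 (-0.26 ± 0.06, adjusted p = 0.00422), a call lost without the first day 0 library (adjusted p = 0.0608) or when the fit used these 4 libraries alone (adjusted p = 0.115). The order of the falls, Myh2 past Myh1 past Myh4, left Myh2 at 1.73 and 1.59% of heavy chain RNA per kilobase. Actn2, the Z-disc alpha-actinin found in all skeletal fibres and in heart, was the gene that rose, at 8477 and 8191 at day 1, against 7423 and 7176 at day 0 (0.19 ± 0.04, adjusted p = 0.00219). With these 4 libraries alone its adjusted p was 0.0506.

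**Figure D1:**
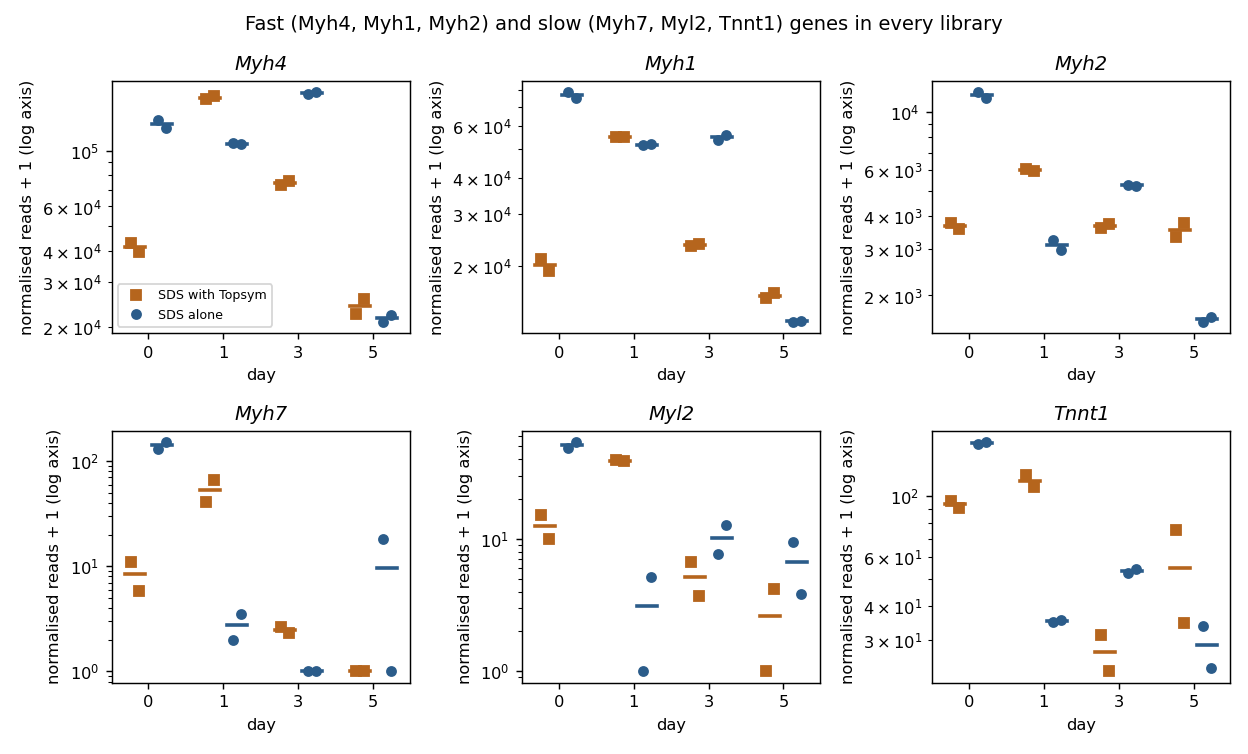
Normalised reads + 1 (log axis) of 3 fast heavy chain genes (upper row) and 3 slow fibre genes (lower row) by day, with SDS with Topsym as squares on the left and SDS alone as circles on the right, 1 point per library and the group mean as a line. At day 1 the slow genes of SDS alone sit near the bottom, with Myh7 at 0.971 and 2.52 normalised reads, while with Topsym it read 40.1 and 65.0.

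At day 3 of SDS alone the members parted. Against day 0, 9 of 34 rose and 18 fell, where 25.4% of all genes were called higher and 24.2% lower, and the median change was -0.28 against -0.01 over all genes. The share of members higher was thus near that of all genes. Actn2 led the rises and Casq1, the calcium-binding protein of the sarcoplasmic reticulum in fast fibres, led the falls after Myh7. Of the Z-disc and scaffold genes 4 rose and 2 fell, of the thick filament genes 3 rose and 7 fell, and of the energy genes all 3 fell.

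Actn2 read 38254 and 39163 normalised reads at day 3, against 7423 and 7176 at day 0 (2.41 ± 0.04, adjusted p = 7.42e-17), which is 5.30 times the day 0 mean. Neb, nebulin, which spans the thin filament, was 25707 and 27796 at day 3, against 13563 and 12235 at day 0 (1.05 ± 0.06, adjusted p = 5.73e-10). Des, the intermediate filament desmin that ties Z-discs together, was 39591 and 39862 at day 3, against 22099 and 22418 at day 0 (0.84 ± 0.04, adjusted p = 2.19e-11). Both libraries of day 3 lay above both of day 0 in all 3, as they did for 37.9% of all genes tested. Myot (myotilin, a Z-disc protein) changed by 0.68 ± 0.05, Ryr1 (the calcium release channel) by 0.62 ± 0.05 and Myh4 by 0.41 ± 0.06, with adjusted p of 5.79e-09, 1.52e-08 and 2.7e-05. Smaller rises, from 0.13 to 0.26, were called for Mybpc1, Mybpc2 (myosin-binding proteins) and Actn3 (the alpha-actinin of fast fibres). The call of Mybpc2 was lost without the first day 3 library (adjusted p = 0.0619) or the second day 0 library (0.0721).

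Casq1 read 774 and 765 normalised reads at day 3, against 5843 and 5953 at day 0 (-2.94 ± 0.10, adjusted p = 2.85e-13). Pvalb, parvalbumin, the soluble calcium buffer of fast fibres, was 4434 and 4356 at day 3, against 10565 and 10315 at day 0 (-1.25 ± 0.06, adjusted p = 3.84e-11). Tcap, telethonin, which caps titin at the Z-disc, was 4012 and 3851 at day 3, against 8915 and 9208 at day 0 (-1.20 ± 0.06, adjusted p = 4.69e-11). These genes had lower values in both day 3 libraries than in either day 0 library, as did 38.4% of all genes tested. Myh2 stayed lower than at day 0, at 5284 and 5212 (-1.14 ± 0.06, adjusted p = 1.15e-10), and Myh1 too, at 53998 and 55973 (-0.47 ± 0.04, adjusted p = 1.67e-07), while Myh4 reached 167890 and 169831. Myh4 therefore made up 75.1 and 74.7% of heavy chain RNA per kilobase. Myh7 had 0 reads in both day 3 libraries, at least 104-fold lower than at day 0 if each read is independent (floor of 3 reads over the group). Of counts from 1 to 20 reads, however, 69.9 to 76.8% were even in each library. Reads may thus have been counted in twos, and the bound would then be smaller.

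Between day 1 and day 3 of SDS alone, 21 members rose and 6 fell, where 23.6% of all genes were called higher and 18.6% lower. Of the slow genes, Tnnc1 rose to 21.6 and 12.6 normalised reads at day 3, against 1.94 and 1.68 at day 1 (2.65 ± 0.55, adjusted p = 0.000925), and Myl2 was also called higher, at 6.66 and 11.7 at day 3, against 0 and 4.20 at day 1 (adjusted p = 0.0492). The change of Tnnc1 was 1.83 with a pseudocount of 4 and 3.26 with DESeq2. Myl2 lost its call without 3 of the 4 libraries in turn (adjusted p from 0.0807 to 0.469, with a change of 0.92 without the first of day 1) and with 6 of the other settings (0.0523 to 0.107). The remaining slow genes were not called. Against day 0, 5 of the 6 slow genes were still called lower at day 3 and 0 higher, with a median change of -2.12 (24.2% of all genes were called lower). Casq1 and Pvalb were lower at day 3 than at day 1 as well, Casq1 by a log2 change of -1.94 ± 0.10 (adjusted p = 7.93e-11).

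The promoters of 4 members are shown because these genes stood at the ends of the changes: Actn2 and Casq1, with the largest called rise and the largest called fall at day 3 with Topsym, and Myh4 and Myh7, the chief fast and the slow heavy chain. Each is 250 bases before to 50 after the RefSeq start on GRCm38.p6, 5′ to 3′ on the gene's strand, with capitals marking E-boxes (CANNTG, a palindrome read on both strands, the site class bound by MyoD and other basic helix-loop-helix factors). They lie on the minus strand at chr13:12340683-12340982 (Actn2), chr1:172219846-172220145 (Casq1) and chr14:54994577-54994876 (Myh7), and on the plus strand at chr11:67237562-67237861 (Myh4).
Actn2: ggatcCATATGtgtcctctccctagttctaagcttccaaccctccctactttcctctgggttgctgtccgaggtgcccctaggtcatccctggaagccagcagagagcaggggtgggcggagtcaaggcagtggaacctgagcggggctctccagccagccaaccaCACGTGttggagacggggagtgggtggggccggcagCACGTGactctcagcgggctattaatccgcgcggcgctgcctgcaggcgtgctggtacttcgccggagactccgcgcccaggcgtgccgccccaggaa
Casq1: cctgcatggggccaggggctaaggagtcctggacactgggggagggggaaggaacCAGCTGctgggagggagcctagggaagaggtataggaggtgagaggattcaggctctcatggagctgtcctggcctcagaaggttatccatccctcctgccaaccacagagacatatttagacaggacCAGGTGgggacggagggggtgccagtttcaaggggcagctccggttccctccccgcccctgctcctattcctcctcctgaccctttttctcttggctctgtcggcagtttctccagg
Myh4: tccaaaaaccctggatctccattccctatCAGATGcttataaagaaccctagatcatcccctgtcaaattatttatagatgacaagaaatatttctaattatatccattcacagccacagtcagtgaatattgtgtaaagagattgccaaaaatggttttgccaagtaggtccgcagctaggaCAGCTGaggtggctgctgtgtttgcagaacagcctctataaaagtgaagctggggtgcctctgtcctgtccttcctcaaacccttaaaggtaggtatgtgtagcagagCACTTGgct
Myh7: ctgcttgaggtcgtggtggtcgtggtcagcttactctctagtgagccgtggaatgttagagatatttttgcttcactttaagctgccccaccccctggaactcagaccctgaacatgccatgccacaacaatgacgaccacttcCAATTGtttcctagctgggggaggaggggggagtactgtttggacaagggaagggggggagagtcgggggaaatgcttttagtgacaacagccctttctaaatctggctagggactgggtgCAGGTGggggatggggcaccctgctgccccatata
Promoters were on file for 28 of the 35 members, each counted once, at its most upstream start. The promoters they are set against were not reduced to 1 a gene, so the sets are not alike. An E-box stood in 82.1% of these 28, against 72.3% of all 32851 promoters of that length, at least 2 in 57.1% against 39.6%, and at least 3 in 17.9% against 17.6%. The window of Actn2 held 3, that of Myh4 3, and those of Casq1 and Myh7 2 each, so both Actn2, which rose, and Casq1, which fell, carried them. The glucocorticoid receptor site, searched as GNACA and its reverse complement TGTNC with any 3 bases between them, reads the same on both strands and was in 0 of the 28 windows and in 0.475% of all promoters. These matches describe letters in the window only.

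At day 5 of SDS alone nearly the whole set was low. Of 34 members tested, 32 fell against day 0 and 1 rose, where 35.8% of all genes were called lower and 30.7% higher, and the median change was -2.46 against -0.09 over all genes. The falls differed widely by gene. They ran from -5.60 for Casq1 to -1.02 for Tpm2 and Des, and Actn2 was back near its day 0 level. All 12 adipocyte markers, all 12 fibroblast markers and 9 of 10 smooth muscle markers fell too (sums of 9122 to 9615, 18110 to 18494 and 1977 to 2052 normalised reads at day 5, against 70265 to 72864, 323278 to 331249 and 23400 to 23751 at day 0), while of 12 keratinocyte markers 10 rose and 2 fell. Their part in the result was not tested.

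Casq1 read 141 and 103 normalised reads at day 5, against 5843 and 5953 at day 0 (-5.60 ± 0.10, adjusted p = 2.98e-17). Pvalb was 518 and 550 at day 5, against 10565 and 10315 at day 0 (-4.29 ± 0.06, adjusted p = 2.9e-18). Ttn, titin, the giant spring that runs from Z-disc to mid-sarcomere, was 3846 and 3388 at day 5, against 36376 and 34249 at day 0 (-3.29 ± 0.07, adjusted p = 4.28e-16). Eno3, the muscle enolase of glycolysis, was 1586 and 1531 at day 5, against 12725 and 13698 at day 0 (-3.08 ± 0.06, adjusted p = 2.05e-16). In all 4 genes both day 5 libraries lay far below day 0, and they lay below both of day 0 for 43.4% of all genes tested.

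The smallest called falls among thick filament, thin filament, calcium and energy genes were those of Mybpc1, Tpm2, Ryr1 and Pygm. Mybpc1, the slow-type myosin-binding protein C, was 4285 and 4334 at day 5, against 12693 and 12481 at day 0 (-1.55 ± 0.04, adjusted p = 4.79e-15). It is outside the list of 6 slow genes and did not move like them. Its means at days 1 and 3 of SDS alone were 8935 and 15068, against 12587 at day 0. The 6 slow genes changed by mean log2 values of -3.52 and -2.84 at those days. Tpm2, beta-tropomyosin, was 22288 and 23095 at day 5, against 47140 and 45178 at day 0 (-1.02 ± 0.05, adjusted p = 4.46e-11), and Ryr1 was 2161 and 2364 at day 5, against 9487 and 9975 at day 0 (-2.11 ± 0.05, adjusted p = 9.51e-16). Pygm, the muscle glycogen phosphorylase, was 3861 and 3887 at day 5, against 22026 and 23825 at day 0 (-2.56 ± 0.05, adjusted p = 2.82e-16). Tnni1 was not called (8.54 and 28.3 at day 5, against 15.0 and 32.9 at day 0, -0.48 ± 0.77, adjusted p = 0.599), and its groups overlapped. Actn2 was 7599 and 8103 at day 5, against 7423 and 7176 at day 0 (0.10 ± 0.04, adjusted p = 0.034), a call lost without the second library of either day (adjusted p of 0.297 without the one of day 5 and 0.178 without the one of day 0) or with these 4 libraries alone (0.148).

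The heavy chains at day 5 of SDS alone were 12891 and 12926 for Myh1, 1589 and 1651 for Myh2 and 20962 and 22323 for Myh4. As Myh1, Myh2 and Myh4 fell by nearly the same factor against day 0 (-2.56, -2.83 and -2.56), Myh4 was again 60.7 and 62.1% of the sum per kilobase. Myh7 read 17.1 and 0, Myl2 8.54 and 2.83, Myl3 5.69 and 0, Tnnc1 22.8 and 12.8, Tnnt1 32.7 and 22.7 and Tnni1 8.54 and 28.3. The 2 libraries of the group differ widely in several of these slow genes, each read being worth about 1.42 normalised reads there, and 5 of the 6 were called lower than at day 0. Myh7 changed by -5.05 ± 0.96 (adjusted p = 0.000213), -7.14 without the first and -2.97 without the second day 5 library, and Myl3 by -3.57 ± 0.78 (adjusted p = 0.00077), -4.94 and -2.20 in the same order. Tnnt1 changed by -2.47 ± 0.35 (adjusted p = 1.01e-05), and Myl2 by -3.08 ± 0.82 (adjusted p = 0.00351), -3.74 and -2.42 without the first and the second day 5 library. Tnnc1 changed by -1.47 ± 0.55 (adjusted p = 0.0275), a call lost without the second day 5 library or either day 0 library (adjusted p of 0.157, 0.0539 and 0.141) and with no filter (0.065). Between day 3 and day 5, 29 members fell and none rose with limma, where 34.5% of all genes were called lower and 28.9% higher. At an unadjusted p under 0.05, 1 member was higher, and edgeR and DESeq2 each called 1 higher, Myh7, whose 12 reads at day 5 were all in the first library. Ttn had the largest called fall (-3.46 ± 0.07, adjusted p = 2.96e-16).

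With SDS and Topsym the same genes started low and were higher at day 1. Of 34 members, 29 rose at day 1 against day 0 of that arm and none fell with limma, at an unadjusted p under 0.05 (0 members) or with edgeR and DESeq2 (0 each), where 20.3% of all genes were called higher and 20.5% lower, and the median change was 1.54 against -0.03. All 13 fast genes tested rose. Of the 6 slow genes Myh7 was called, while Myl2, Myl3, Tnnt1, Tnni1 and Tnnc1 were not, with changes from -0.74 to 1.68. These values rest on the 2 libraries of day 0 with Topsym, whose muscle RNA was low. Other tissue markers moved too: 11 of 12 adipocyte markers rose (82358 to 82473 normalised reads at day 1, against 32961 to 33766 at day 0), 5 of 10 smooth muscle markers rose and 1 fell (20074 to 20482, against 12418 to 12725), 9 of 12 fibroblast markers fell (237983 to 238288, against 450510 to 458365), and 4 keratinocyte markers rose and 6 fell (573262 to 575413, against 742652 to 759005). Their part in the result was not tested.

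Actn2 read 15007 and 14930 normalised reads at day 1 with Topsym, against 2434 and 2463 at day 0 (2.61 ± 0.04, adjusted p = 6.21e-17). Ttn was 46463 and 47461 at day 1, against 9185 and 7888 at day 0 (2.46 ± 0.07, adjusted p = 7.49e-14). Myh4 was 160039 and 163799 at day 1, against 43075 and 39717 at day 0 (1.97 ± 0.06, adjusted p = 1.83e-13). The smallest rises were those of Casq1, 4422 and 4572 at day 1, against 2966 and 2979 at day 0 (0.60 ± 0.10, adjusted p = 0.0001), and of Myh2, 6059 and 5949 at day 1, against 3760 and 3585 at day 0 (0.71 ± 0.06, adjusted p = 7.31e-08). Myh7 was 40.1 and 65.0 at day 1, against 10.1 and 4.88 at day 0 (2.69 ± 0.96, adjusted p = 0.0343), a call lost without any of the 4 libraries (adjusted p from 0.0697 to 0.197) and with no filter on low values (0.0735).

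At day 3 with Topsym, 19 members rose and 9 fell against day 0, where 27.0% of all genes were called higher and 28.2% lower. Actn2 was 16079 and 16349 at day 3, against 2434 and 2463 at day 0 (2.73 ± 0.04, adjusted p = 1.01e-17). Casq1 was 359 and 351 at day 3, against 2966 and 2979 at day 0 (-3.06 ± 0.10, adjusted p = 1.19e-13). Pvalb was 1919 and 1754 at day 3, against 4657 and 5206 at day 0 (-1.42 ± 0.06, adjusted p = 5.4e-12). These 3 genes thus changed against day 0 in the directions seen at day 3 of SDS alone. Myot rose by 1.72 ± 0.05 (adjusted p = 3.58e-14). Tnnc1 was 3.27 and 6.03 at day 3, against 36.2 and 21.9 at day 0 (-2.41 ± 0.55, adjusted p = 0.00134). Against day 1 of the same arm, 32 members were lower at day 3 and 1 higher, where 22.9% of all genes were called lower and 22.1% higher. Actn2 was the one called higher (0.12 ± 0.04, adjusted p = 0.0305), and it lost that call without any of the 4 libraries (adjusted p from 0.0755 to 0.149).

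At day 5 with Topsym, 8 members were higher than at day 0 of that arm and 18 lower, where 32.8% of all genes were called higher and 37.5% lower, so the shares were below and above those of all genes. Actn2 was 10964 and 10966 at day 5, against 2434 and 2463 at day 0 (2.16 ± 0.04, adjusted p = 6.43e-17). Des was 22712 and 23530 at day 5, against 9599 and 9388 at day 0 (1.28 ± 0.04, adjusted p = 2.6e-14). Tnni1, slow troponin I, was 40.3 and 47.9 at day 5, against 3.02 and 7.31 at day 0 (2.96 ± 0.77, adjusted p = 0.0026), above its values in the other 14 libraries. Tnnt3, Tnni2, Tpm2, Tcap and Myot were the other 5 that rose. Of the 6 slow genes Tnni1 was the 1 called higher, and 4 were called lower. Their median change was -1.72, or -1.07 with genes at 0 reads set to their bounds. Myh7 and Myl3 had 0 reads at day 5. Pvalb was 605 and 572 at day 5, against 4657 and 5206 at day 0 (-3.06 ± 0.06, adjusted p = 1.06e-16). Casq1 was 599 and 625 at day 5, against 2966 and 2979 at day 0 (-2.28 ± 0.10, adjusted p = 2.18e-12).

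Between day 3 and day 5 with Topsym, 9 members rose and 20 fell, where 27.1% of all genes were called higher and 35.1% lower. Tcap rose to 5121 and 5523, against 2250 and 2316 at day 3 (1.22 ± 0.06, adjusted p = 2.54e-11), and Casq1 rose to 599 and 625, against 359 and 351 (0.79 ± 0.10, adjusted p = 2.41e-06). Neb fell to 3225 and 3390, against 12127 and 12503 at day 3 (-1.90 ± 0.06, adjusted p = 2.44e-13). Of the slow genes Tnni1, Tnnc1 and Tnnt1 were called higher and Myl3 lower. Tnnc1 was 16.1 and 38.3 at day 5, against 3.27 and 6.03 at day 3 (2.24 ± 0.55, adjusted p = 0.00207), and 1.64 without the second and 2.84 without the first day 5 library. Tnnt1 was 74.6 and 33.5 at day 5, against 30.3 and 22.1 at day 3 (0.93 ± 0.35, adjusted p = 0.0295), a call lost without the first day 5 or the second day 3 library (adjusted p of 0.376 and 0.18) or in a fit of these 4 libraries alone (0.202). Tnni1 changed by 2.95 ± 0.77 (adjusted p = 0.00313), 3.61 without the first and 2.29 without the second day 3 library. Myl3 was 0 and 0 at day 5, against 3.27 and 4.02 at day 3, where the group held 10 reads, so no fold is given. It lost its call with 4 of the other settings and without any of the 4 libraries. Its change of -2.21 ran from -2.33 to -2.10 with 1 library left out. Myh7 was 0 and 0 at day 5, against 1.64 and 1.34 at day 3, and Myl2 was 0 and 3.20, against 5.73 and 2.68. Myh2 was 3332 and 3783 at day 5, or 7.03 and 7.21% of heavy chain RNA per kilobase, its highest shares in the series.

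**Figure D2:**
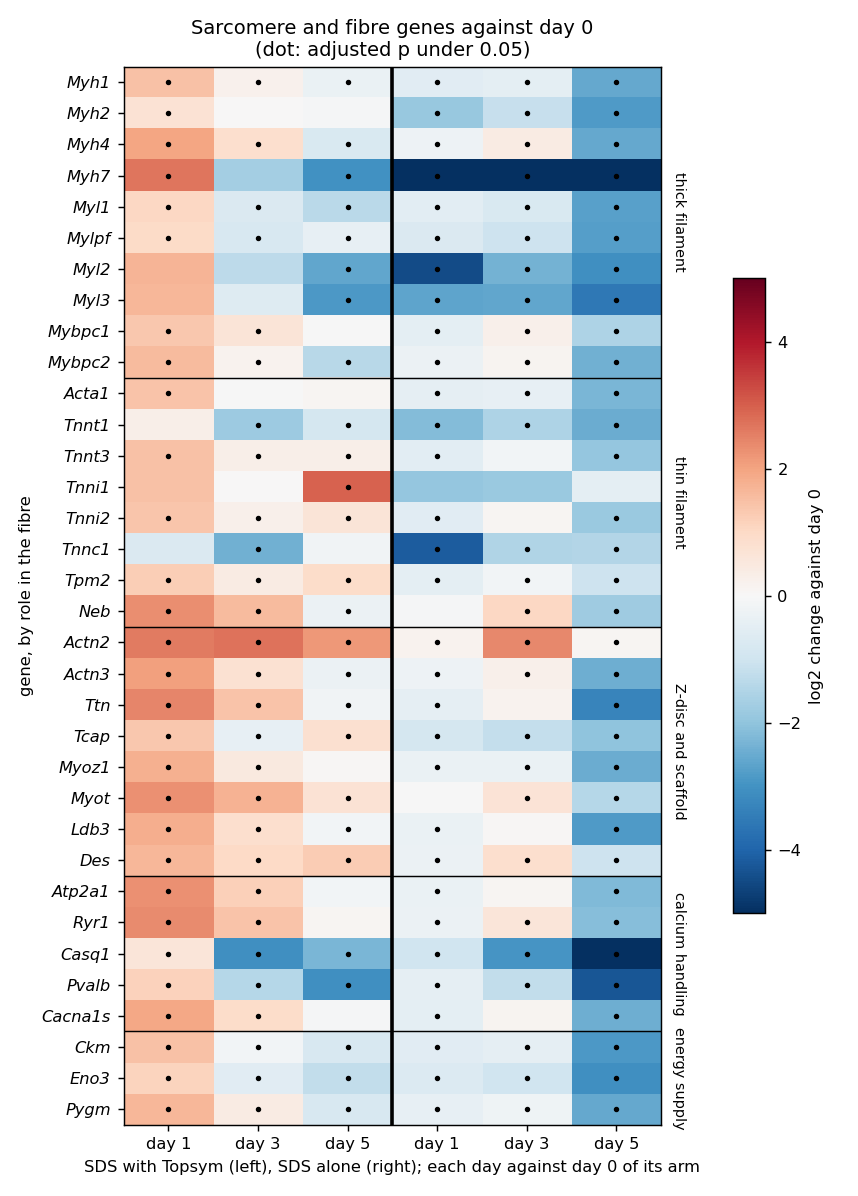
Log2 change against day 0 of the same arm (colour) for the 34 genes tested, in rows by role, with SDS with Topsym at days 1, 3 and 5 on the left and SDS alone at the same days on the right. Dots mark an adjusted p under 0.05, and colours end at -5 and 5. Actn2 is red at day 3 in both arms (2.73 with Topsym and 2.41 without) and Casq1 blue (-3.06 with Topsym and -2.94 without), while day 1 is mostly red with Topsym and pale or blue without.

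Set against SDS alone on the same day, the Topsym libraries had less muscle RNA at day 0, more at day 1, less at day 3 and more at day 5. At day 0, 29 of 34 members were lower with Topsym and none higher with limma, where 11.2% of all genes were called lower and 10.8% higher, and the median change was -1.42 against 0.00. At day 1, 31 were higher and none lower with limma, where 5.51% of all genes were called higher and 4.29% lower, and the median was 0.71. At day 3, 30 were lower and none higher with limma, where 22.9% of all genes were called lower and 20.8% higher, and the median was -0.90. At day 5, 25 were higher and 2 lower, where 22.6% of all genes were called higher and 24.2% lower, and the median was 0.65. In the directions without a call at days 0, 1 and 3, the count was also 0 at an unadjusted p under 0.05 and with edgeR and DESeq2 on recovered reads.

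The change from day 0 differed between the arms as well. Tested as a difference of differences, 34 of 34 members had a higher change with Topsym at day 1, where 9.18% of all genes were called higher and 8.06% lower. At day 3 the count was 24, where 19.5% of all genes were called higher and 19.5% lower, and at day 5 it was 30, where 17.3% were called higher and 17.7% lower. These contrasts carry the day 0 gap between the arms in them.

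At day 0 the largest fall among fast and shared genes was that of Ttn, at 9185 and 7888 with Topsym, against 36376 and 34249 with SDS alone (-2.05 ± 0.07, adjusted p = 2.66e-12). The smallest was that of Myl1, the fast essential light chain, at 7582 and 7937 with Topsym, against 14346 and 13889 with SDS alone (-0.86 ± 0.05, adjusted p = 4.17e-09). Myh7 was 10.1 and 4.88 with Topsym, against 130 and 151 with SDS alone (-4.13 ± 0.96, adjusted p = 0.00473), a call lost without the second Topsym library (adjusted p = 0.0679). Myh1 was 21066 and 19150, Myh2 3760 and 3585 and Myh4 43075 and 39717 with Topsym. All lay below the values of SDS alone, as did both Topsym libraries for 31.0% of all genes tested. Fat and smooth muscle genes moved the same way: 11 of 12 adipocyte markers and 8 of 10 smooth muscle markers were lower with Topsym. Adipocyte markers summed to 32961 to 33766 normalised reads with Topsym, against 70265 to 72864 with SDS alone, and smooth muscle markers to 12418 to 12725, against 23400 to 23751. Fibroblast markers ran the other way (8 of 12 higher, 450510 to 458365 with Topsym, against 323278 to 331249), and keratinocyte markers were near level (2 of 12 higher and 3 lower, 742652 to 759005, against 725591 to 735468). None of the markers in these 4 lists was at 0 throughout either group, and the part of tissue make-up in the result was not tested.

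At day 1 the slow genes differed most. Myh7 was 40.1 and 65.0 with Topsym, against 0.971 and 2.52 with SDS alone (4.30 ± 0.96, adjusted p = 0.00797). Myl2 was 38.4 and 37.9 with Topsym, against 0 and 4.20 with SDS alone (4.10 ± 0.82, adjusted p = 0.00364). Tnnc1 was 14.7 and 18.6 with Topsym, against 1.94 and 1.68 with SDS alone (2.64 ± 0.55, adjusted p = 0.00497), and Tnnt1 was 119 and 107, against 34.0 and 34.4 (1.69 ± 0.35, adjusted p = 0.00457). Myl3 was 29.4 and 16.2 with Topsym, against 5.83 and 2.52, and Tnni1 18.8 and 11.6, against 2.91 and 8.39, with no call for either. Both Topsym libraries lay above both of SDS alone in all 6, as they did for 27.3% of all genes tested. With 1 library left out the calls were lost for Myh7 (without the first of SDS alone or the second Topsym library, adjusted p of 0.0873 and 0.0897), Myl2 (without the first of SDS alone, 0.0774, or in a fit of these 4 libraries, 0.0602), Tnnc1 (without the second Topsym library, 0.0588) and Tnnt1 (without the first Topsym library, 0.0569). Without the second library of SDS alone the change of Myl2 was 5.29, and with a pseudocount of 4 the changes of Myh7, Myl2 and Tnnc1 were 3.28, 2.88 and 1.82.

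The fast genes differed less at day 1. Ldb3, a Z-disc PDZ protein of all striated muscle, was 10832 and 11341 with Topsym, against 5767 and 5562 with SDS alone (0.97 ± 0.06, adjusted p = 9.88e-09), the largest change outside the slow genes. Myh2 was 6059 and 5949 with Topsym, against 3255 and 2972 with SDS alone (0.95 ± 0.06, adjusted p = 3.01e-08). Myh1 was 55175 and 54948 with Topsym, against 51718 and 51934 with SDS alone, and was not called (0.09 ± 0.04, adjusted p = 0.301). Adipocyte markers summed to 82358 to 82473 with Topsym, against 69004 to 70618 with SDS alone (4 of 12 higher, 1 lower), and smooth muscle markers to 20074 to 20482, against 21427 to 22230 (1 of 10 lower). Fibroblast markers were higher in 7 of 12 and lower in 1 (237983 to 238288 with Topsym, against 184885 to 187725), and keratinocyte markers higher in 1 and lower in 3 (573262 to 575413, against 594556 to 627744). Their part in the result was not tested.

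At day 3 every fast gene tested was lower with Topsym. Actn2 was 16079 and 16349 with Topsym, against 38254 and 39163 with SDS alone (-1.26 ± 0.04, adjusted p = 6.96e-13). Myh4 was 72772 and 75409 with Topsym, against 167890 and 169831 with SDS alone, and Myh1 was 23417 and 23701, against 53998 and 55973. The smallest called fall was that of Ldb3, 5722 and 5541 with Topsym, against 7308 and 7377 (-0.38 ± 0.06, adjusted p = 2.39e-05), and the largest was that of Tnnc1, 3.27 and 6.03 with Topsym, against 21.6 and 12.6 (-1.68 ± 0.55, adjusted p = 0.0205), lost without the first library of either group (adjusted p of 0.153 and 0.154) or with no filter (0.053). At this day 11 of 12 fibroblast markers were lower with Topsym (32808 to 33067, against 105879 to 106834 with SDS alone) and 11 of 12 keratinocyte markers higher (942370 to 954266, against 403018 to 412295). Of adipocyte markers 3 were higher and 5 lower, and of smooth muscle markers 4 higher and 1 lower. Whether these shifts in make-up take part in the result was not tested.

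At day 5 the member that differed most was Casq1, at 599 and 625 with Topsym, against 141 and 103 with SDS alone (2.33 ± 0.10, adjusted p = 2.03e-11). Ldb3 was 2824 and 2858 with Topsym, against 928 and 1057 with SDS alone (1.52 ± 0.06, adjusted p = 5.1e-12), and Tnni2, fast troponin I, was 15990 and 16758, against 6320 and 6748 (1.33 ± 0.06, adjusted p = 2.8e-11). All 8 Z-disc and scaffold genes were higher. Mybpc2, the fast myosin-binding protein C, was lower, at 1773 and 1748 with Topsym, against 1982 and 2087 (-0.21 ± 0.04, adjusted p = 0.000412), and so was Neb, at 3225 and 3390, against 3774 and 3672 (-0.17 ± 0.06, adjusted p = 0.036). Both lost their calls when the fit held these 4 libraries alone (adjusted p of 0.0569 and 0.0766), and Neb also with no filter (0.0639) and without 3 of the 4 libraries in turn (0.0659 to 0.178). Of the 6 slow genes 0 were called in either direction with limma, and 1 was higher and 1 lower at an unadjusted p under 0.05. edgeR and DESeq2 each called Tnnt1 higher and Myh7 lower. Myh7 was 0 and 0 with Topsym, against 17.1 and 0 with SDS alone. Its groups thus overlapped, and its 12 reads were all in the first library of SDS alone. Pvalb was level at 605 and 572 with Topsym, against 518 and 550. Smooth muscle markers were higher with Topsym in 5 of 10 and lower in 1 (5099 to 5331, against 1977 to 2052) and fibroblast markers lower in 11 of 12 (7626 to 7793, against 18110 to 18494). Of adipocyte markers 6 were higher and 3 lower, of keratinocyte markers 5 each, and the part of these shifts was not tested.

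**Figure D3:**
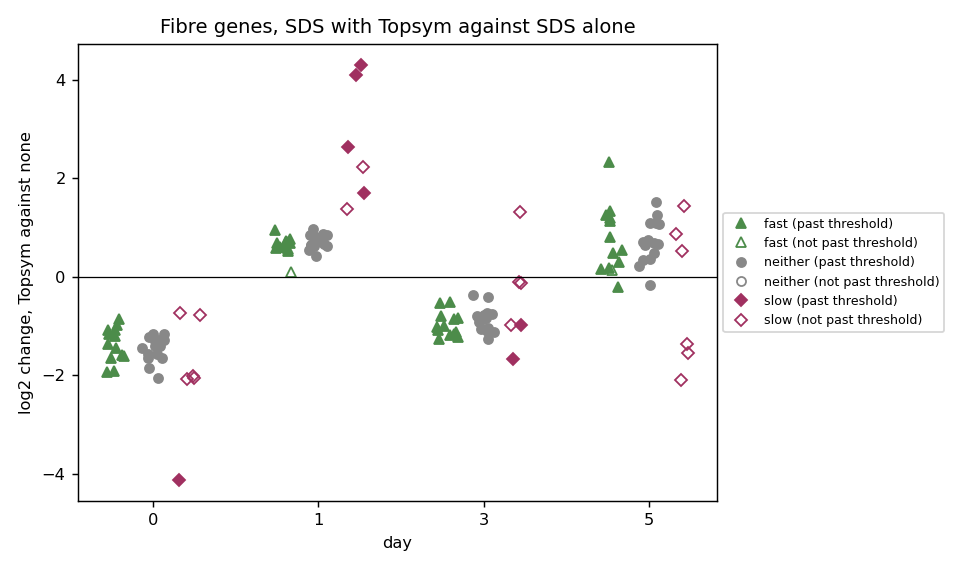
Log2 change of SDS with Topsym against SDS alone at each day, 1 point per gene, for 13 fast genes (triangles, left), 15 genes of neither list (circles, middle) and 6 slow genes (diamonds, right). Filled points passed an adjusted p of 0.05. The medians over the 34 genes are -1.42, 0.71, -0.90 and 0.65 at days 0, 1, 3 and 5, and slow genes reach 4.30 at day 1.

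Slow and fast genes were compared through the mean log2 change of each list, slow minus fast. With no test over the members, the value is read against a standard deviation (SD) between replicates. This SD joins those of both groups compared, each from 2 libraries, as the root of their summed squares. It is not the error of a difference of means. At day 1 of SDS alone the slow genes had changed by a mean of -3.52 and the fast genes by -0.59, a difference of -2.93 (SD 0.49). At day 3 the means were -2.84 and -0.55, a difference of -2.29 (SD 0.37). At day 5 they were -2.69 and -2.82, a difference of 0.13 (SD 0.98). The difference at day 5 lies within the spread between replicates, and it turns to -0.22 with medians in place of means and ran from -0.54 to 0.80 with 1 library left out.

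With Topsym the lists kept closer together at day 1, with mean changes of 1.17 for slow and 1.42 for fast genes, a difference of -0.25 (SD 0.24). At day 3 the difference was -1.17 (SD 0.32) and at day 5 it was -0.39 (SD 0.35). Without Myh7 the day 3 difference of SDS alone was -1.43, since Myh7 had no read at that day. Topsym against none gave a slow minus fast difference of -0.59 (SD 0.33) at day 0, 2.10 (SD 0.44) at day 1, 0.54 (SD 0.36) at day 3 and -1.11 (SD 0.98) at day 5. The day 1 value was 1.43 with a pseudocount of 4, and the day 5 value ran from -1.78 to -0.44 with 1 library left out. The slow genes have few reads, from 0 to 156 normalised reads a library, so small counts move their logarithms.

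**Figure D4:**
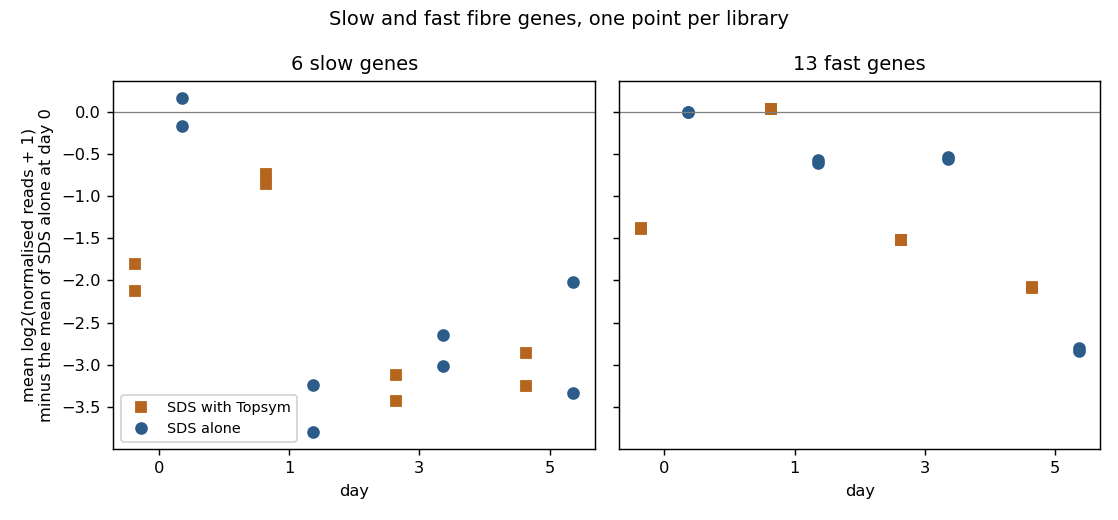
Mean log2(normalised reads + 1) of 6 slow genes (left panel) and 13 fast genes (right panel) in each library, minus the mean of SDS alone at day 0, by day, with SDS with Topsym as squares on the left and SDS alone as circles on the right. At day 1 of SDS alone the slow genes had dropped by a mean of 3.52 and the fast genes by a mean of 0.59.

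Some genes changed rank among the fibre genes in the same way in both arms. Each level was taken relative to the median of the 34 members in its library, which removes shifts common to the set. The 6 genes given were chosen after their values were seen, and the values are a description. Actn2 stood at -0.88 and -0.87 (log2) at day 0, 0.11 and 0.10 at day 1, 1.51 and 1.57 at day 3 and 1.74 and 1.67 at day 5 with Topsym, and at -0.72 and -0.71, -0.02 and -0.03, 1.92 and 1.99 and 1.79 and 1.78 with SDS alone. It was thus below the median member at day 0 and well above it from day 3 on, with no overlap between day 0 and later days. Casq1 ran the other way, at -0.60 in both libraries of day 0, -1.65 and -1.61 at day 1 and -3.97 in both of day 3 with Topsym, and at -1.07 and -0.98, -1.52 and -1.51 and -3.71 and -3.69 at those days with SDS alone.

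At day 5 Casq1 stood at -2.45 and -2.46 with Topsym, against -3.96 and -4.49 with SDS alone. Pvalb stood lowest at day 5 in both arms, at -2.44 and -2.58 with Topsym and -2.09 and -2.10 with SDS alone. Des stood highest at day 5, at 2.79 and 2.78 with Topsym and 2.27 and 2.26 with SDS alone, while its day 0 values lay between 0.85 and 1.10. Neb peaked at day 3, at 1.11 and 1.19 with Topsym and 1.35 and 1.50 with SDS alone. Tcap was lowest at day 3, at -1.32 and -1.25 with Topsym and -1.33 and -1.36 with SDS alone, and highest at day 5, at 0.64 and 0.68 with Topsym and -0.04 and -0.01 with SDS alone.

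**Figure D5:**
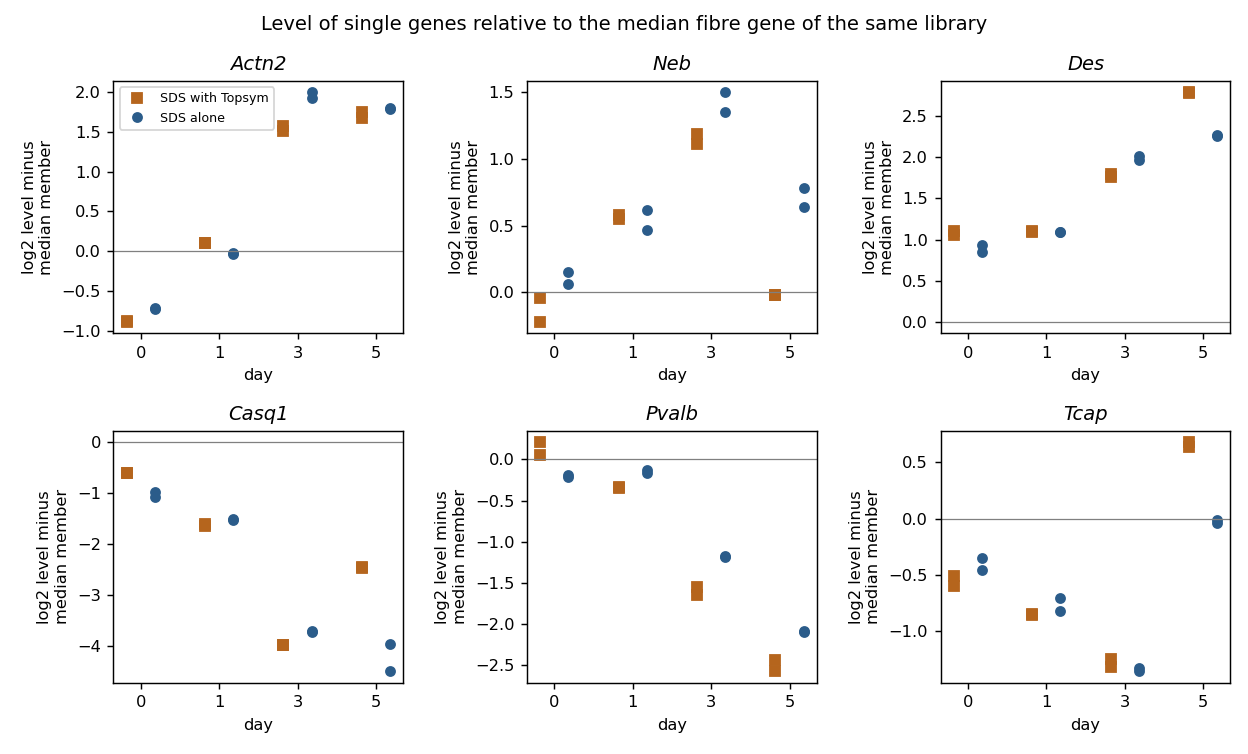
Log2 level of 6 genes minus the median of the 34 fibre genes in the same library, by day, with SDS with Topsym as squares on the left and SDS alone as circles on the right, 1 point per library. Actn2 stands above the median at day 3 (1.51 and 1.57 with Topsym, 1.92 and 1.99 with SDS alone) and Casq1 below it, at -3.97 with Topsym and at -3.71 and -3.69 with SDS alone.

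A further 56 genes of the muscle fibre, outside the 35, were read the same way. At day 1 of SDS alone 9 of them rose and 26 fell, where 12.8% of all genes were called higher and 13.5% lower. At day 3 24 rose and 21 fell (25.4 and 24.2% of all genes), and at day 5 5 rose and 44 fell (30.7 and 35.8%). With Topsym 44 rose and 1 fell at day 1 (20.3 and 20.5% of all genes), and 29 rose and 16 fell at day 3 (27.0 and 28.2%). At day 5 with Topsym 21 rose and 24 fell, where 32.8% of all genes were called higher and 37.5% lower, shares not far from those of the list. Topsym against none gave 1 higher and 48 lower at day 0 (10.8 and 11.2% of all genes), 29 higher at day 1 (5.51%), 4 higher and 38 lower at day 3 (20.8 and 22.9%), and 40 higher and 6 lower at day 5 (22.6 and 24.2%). The median changes at these 4 days were -1.16, 0.53, -0.63 and 0.82, of the same signs as those of the 35 genes.

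Ankrd2, an ankyrin repeat protein of the sarcomere that responds to stretch, averaged 142 ± 11.2, 4211 ± 90.3, 6141 ± 217 and 7785 ± 294 normalised reads at days 0, 1, 3 and 5 with Topsym, and 395 ± 40.0, 1816 ± 83.1, 18941 ± 400 and 2904 ± 19.1 with SDS alone (SD, n = 2). Its change at day 3 against day 0 was 5.43 ± 0.07 with Topsym and 5.59 ± 0.07 with SDS alone (SE, adjusted p of 2e-18 and 1.45e-18). Csrp3, the muscle LIM protein of the Z-disc, changed by 4.25 ± 0.08 with Topsym and 3.78 ± 0.08 with SDS alone at that day (adjusted p of 8.91e-17 and 5.18e-16). Mylk4, a kinase of the myosin light chain kinase family, fell at day 3 of SDS alone (-4.81 ± 0.43, adjusted p = 8.13e-08), with a mean of 110 ± 11.3 at day 3, against 3103 ± 220 at day 0. Within these muscle genes, then, rises and falls stood side by side at day 3.

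Regulators of muscle formation were few in reads. Of 10 genes on the list 6 were tested. Myod1, the myogenic basic helix-loop-helix factor, averaged 90.1 ± 9.04, 109 ± 22.6, 23.3 ± 4.01 and 31.5 ± 7.44 at days 0, 1, 3 and 5 with Topsym, and 208 ± 15.2, 24.8 ± 8.92, 2.78 ± 1.57 and 0 with SDS alone (SD, n = 2). It fell at day 3 of SDS alone by a log2 change of -5.85 ± 0.44 (adjusted p = 8.41e-09). Myog, myogenin, averaged 19.2 ± 4.14, 71.8 ± 15.2, 149 ± 27.8 and 91.0 ± 11.1 with Topsym, and 51.4 ± 7.84, 25.8 ± 2.02, 113 ± 1.61 and 14.2 ± 0.0393 with SDS alone. It rose at day 3 against day 0 in both arms (2.90 ± 0.31 with Topsym, adjusted p = 5.12e-07, and 1.13 ± 0.31 with SDS alone, adjusted p = 0.00581). Myh3, the embryonic heavy chain of newly formed fibres, was at most 7.37 in any library.

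Other tissue layers moved with the days too. From day 3 to day 5 of SDS alone, adipocyte markers fell in 11 of 12 (9122 to 9615 normalised reads at day 5, against 104256 to 104683 at day 3), smooth muscle markers in 10 of 10 (1977 to 2052, against 10262 to 10446) and fibroblast markers in 11 of 12 (18110 to 18494, against 105879 to 106834, with 1 that rose), while keratinocyte markers rose in 11 of 12 (1838171 to 1943321, against 403018 to 412295). With Topsym at the same step, adipocyte markers fell in 11 of 12 (9977 to 10004, against 70987 to 71785), smooth muscle markers in 7 of 10 (1 rose) and fibroblast markers in 11 of 12, and of 12 keratinocyte markers 7 rose and 5 fell (2691003 to 2735841, against 942370 to 954266). Of all genes, 34.5% were called lower and 28.9% higher at this step of SDS alone, and 35.1% and 27.1% with Topsym. The part of these shifts in the muscle results was not tested. At day 3 against day 0 of SDS alone, by contrast, adipocyte markers rose in 7 of 12 and fell in 2, while smooth muscle markers fell in 8 of 10, and fibroblast markers in 11 of 12 and keratinocyte markers in 9 of 12, with 1 and 2 that rose. With Topsym at that step adipocyte markers rose in 10 of 12 and fell in 2, and smooth muscle markers fell in 7 of 10 and rose in 1. Fibroblast markers fell in 12 of 12, and keratinocyte markers rose in 7 of 12 and fell in 2. Of all genes, 24.2% were called lower and 25.4% higher at day 3 against day 0 of SDS alone, and 28.2% and 27.0% with Topsym.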

How the data were processed

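Whole skin of mice was sequenced in 16 libraries. The submitters' processing notes, in the labels, list Trim Galore 0.6.7, HISAT2 2.2.1, featureCounts 2.0.3, DESeq2 2.11.40.8 and the build mm10. The deposited signal per gene is a count scaled by a library size factor. Dividing by each library's smallest step gave whole reads for 100% of values (tolerance 0.0001). The filter (10 or more in 2 or more libraries) kept 19189 of 32078 genes. Differences of log2(value + 1) were fitted over all 8 groups (limma 3.58.1, R 4.3.3, variance trend) with 8 residual degrees of freedom, and tested on simulated data. Other settings tried were the pseudocount 4, no filter, TMM of edgeR 4.0.16, only the libraries compared, a robust prior, the replicate block, edgeR and DESeq2 1.42.0 on recovered reads, each library left out and, chosen after seeing the data, a fit without day 5. Within groups the chi-square of reads per degree of freedom was 3.13 to 6.98. Small counts were mostly even, and if reads were counted in twos the chi-square would be 1.565 to 3.49. No pair agreed within sampling noise on either reading. Read numbers given above are not halved. Bounds cover counting error only.

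Slow genes were Myh7, Myl2, Myl3, Tnnt1, Tnni1 and Tnnc1. Fast genes were Myh1, Myh2, Myh4, Actn3, Myl1, Mylpf, Tnnt3, Tnni2, Mybpc2, Atp2a1, Casq1, Pvalb and Myoz1, with Tnnc2 not tested. Values in every library are given for the slow genes, the 3 fast heavy chains and the called members with the largest and smallest change in each role at day 5 of SDS alone, and others were named for the largest calls of a comparison or after their values were seen. The members and all lists were chosen with earlier results of these data known. Exon positions came from GENCODE M21, promoters from RefSeq on GRCm38.p6.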

Additional observations from a re-analysis of the deposited data

Results flagged for a closer look

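The change from day 0 differed between the arms. For day 1, all 34 members tested had a higher change with Topsym than with SDS alone (difference of differences, limma adjusted p under 0.05), where 9.18% of all genes were called higher. They ran from 1.54 ± 0.08 for Myl1 (adjusted p = 3.04e-10) to 8.44 ± 1.36 for Myh7 (adjusted p = 0.000307). For day 3, 24 members had a higher change with Topsym, where 19.5% of all genes did, led by Myh7 at 5.44 ± 1.36 (adjusted p = 0.00412). For day 5, 30 members did, where 17.3% of all genes did, led by Tnni1 at 3.44 ± 1.08 (adjusted p = 0.0212). No member was called lower in these 3 contrasts with limma, edgeR or DESeq2, nor at an unadjusted p under 0.05 (0 members each). Each value holds the day 0 gap between the arms, where 29 of 34 members were lower with Topsym, so it is not a difference at the later day alone. With 1 library left out the counts were 32 to 34, 23 to 25 and 28 to 30. Tnni1 lost its call without any of 3 libraries (adjusted p of 0.0863 without the first of day 5 and 0.095 without the second of day 0, both of SDS alone, and 0.101 without the first Topsym library of day 0) and with no filter (0.0528). Its change was 2.82 with a pseudocount of 4 and 4.25 without the second day 5 library of SDS alone. That of Myh7 ran from 6.97 with a pseudocount of 4 to 9.14 with DESeq2 at day 1, and from 4.15 with a pseudocount of 4 to 7.99 with edgeR at day 3. At day 3 itself Myh7 held 0 reads with SDS alone and 4 with Topsym. Its value for that day thus rests mostly on the day 0 gap, which was -4.13 for Myh7.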

How the results depend on the processing

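Of the counts of members called, 288 held within 1.5 times under the other settings and 6 did not, and with 1 library left out 148 held and 12 did not. Of the single changes named, 42 lost their call with 1 library left out and 350 stayed on their side of the threshold, and 22 lost it under other settings, 4 gained it and 782 were as before. None reversed. With the fit restricted to the libraries compared, the counts of members higher at day 1 and at day 5 of SDS alone were 0 each, and the count of members lower with Topsym at day 5 was 0, against 1 with no filter. edgeR and DESeq2 each called 1 member higher at day 5 than at day 3 of SDS alone. With 1 library left out, the counts ran from 0 to 1 for members higher at day 5 of SDS alone against day 0 and against day 3, were 0 throughout for members higher at day 3 than day 1 with Topsym, ran from 1 to 3 for members lower with Topsym at day 5, and from 0 to 1 for members with a lower day 3 change with Topsym. Slow minus fast kept its sign in most settings. With a pseudocount of 4 it was -2.20 and -1.72 at days 1 and 3 of SDS alone, 0.22, reversed, at day 5 with Topsym, and 1.43 for Topsym against none at day 1. With medians it was -1.77 at day 3 and -0.22, reversed, at day 5 of SDS alone, and 0.10, reversed, -1.73 and -1.38 at days 1, 3 and 5 with Topsym. Without Myh7 it was -1.43 at day 3 of SDS alone, -0.55 and 0.00 at days 1 and 5 with Topsym, and -0.15 for Topsym against none at day 0. With 1 library left out it ran from -0.54 to 0.80 at day 5 of SDS alone. The cause of these shifts was not tested. Same-numbered libraries of 2 groups did not deviate together (28 pairs of groups, correlations from -0.0313 to 0.0298). With the replicate block, 30 members were called lower at day 1 of SDS alone and 19 at day 3, against 30 and 18 without it. At day 5 a read was worth 1.42 to 2.02 normalised reads, which limits what can be said of the slow genes there.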
